A study of Drosophila melanogaster with 15 samples.

Results

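The genes of the DNA replication machinery were followed across 5 groups of Drosophila eye disc libraries. They were chosen as a list of 40 gene symbols, and a gene entered when its symbol stood in the gene column of the authors' table of comparisons. This found 38 genes among the 14671 genes with expression values. The symbols lat (Orc3) and DNA-ligI were not found there, so these genes were not analysed here under those names. The rule itself uses no expression value, but the list was drawn up with earlier results of these data known. They cover the clamp and its loader (5 genes), the MCM helicase (6), the factors that activate it (5), the origin recognition complex (5), licensing (2), nucleotide supply (3), single-strand binding (2), the polymerases (6), the nucleases Fen1 and tos (2) and chromatin assembly (2). Of these genes 9 lie on chromosome arm 2L, 10 on 2R, 6 on 3L, 9 on 3R and 4 on X.

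DNA replication starts where the origin recognition complex and the Cdt1 protein, called Dup in flies, load the ring-shaped MCM helicase onto DNA, a step that Geminin blocks. Cdc45 and the GINS complex turn the loaded ring into a moving helicase, replication protein A covers the single strands, and polymerase alpha with its primase makes the first stretch of each new strand. Replication factor C then places the sliding clamp PCNA, encoded by mus209 in flies, on which polymerases delta and epsilon run. In the larval eye disc, cells ahead of the morphogenetic furrow divide freely, and most cells behind it leave the cell cycle and differentiate after the synchronous S phase of the second mitotic wave. The transcription factor E2F1 is known to drive many replication genes at the start of S phase in flies.

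Poly(A) RNA came from surgically isolated GMR domains, marked by GFP, of third-instar eye discs, with 25 to 30 discs pooled per library and 3 separately extracted libraries per group. All 5 groups carried GMR-Gal4, which drives expression behind the morphogenetic furrow, and UAS-eGFP, and the control carried nothing further. The other 4 groups added a UAS transgene for Yap of the choanoflagellate Monosiga (Monosiga Yap), for the same protein with a human segment that the genotype label calls TBD and the description calls TEAD (Monosiga Yap-TBD), for Drosophila Yki carrying the change S168A (Yki S168A), or for the Yap protein of Trichoplax, a placozoan, carrying the change S81A (Trichoplax Yap S81A). Yki and Yap are the coactivators that the Hippo pathway holds back, and the serine changed in Yki S168A is a site at which the kinase Warts phosphorylates it. By the phenotype labels the control eyes were normal, Monosiga Yap gave defects of differentiation, and the other constructs gave these together with ectopic proliferation, graded as middle for Yki S168A and strong for Monosiga Yap-TBD and Trichoplax Yap S81A. The sex of the larvae and the level of each foreign transgene were not given in the sources used here. Nothing says that the 3 libraries of a group came from separate crosses, so p-values measure the spread between these extractions.

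Levels are in FPKM, fragments per kilobase of transcript scaled to the depth of the library. The estimated depth ran from about 12000000 to about 20600000 fragments, so that 1 FPKM of a 2000-base transcript stands for some 24 fragments in the shallowest library. Libraries of the same group correlated at 0.931 to 0.965 across genes. Eye disc identity genes (eya, so, gl, ey, toy, dac) were detected in every group, with summed levels of 547 to 661 FPKM in the control and 319 to 434 FPKM with Monosiga Yap-TBD, the lowest group. Summed photoreceptor markers (elav, sev, ro, chp, salr) stood at 215 to 271 FPKM in the control, 181 to 271 FPKM with Monosiga Yap, 31.3 to 39.3 FPKM with Monosiga Yap-TBD, 72.9 to 87.1 FPKM with Yki S168A and 54.0 to 75.1 FPKM with Trichoplax Yap S81A. Summed cone and pigment cell markers were 66.1 to 73.5 FPKM in the control, 45.5 to 57.1 FPKM with Monosiga Yap, 15.8 to 20.1 FPKM with Monosiga Yap-TBD, 40.1 to 52.7 FPKM with Yki S168A and 37.5 to 46.6 FPKM with Trichoplax Yap S81A. Summed anterior progenitor markers (hth, tsh, tio, Optix, eyg) were 169 to 176 FPKM in the control, 131 to 211 FPKM with Monosiga Yap, 162 to 239 FPKM with Monosiga Yap-TBD, 273 to 337 FPKM with Yki S168A and 244 to 249 FPKM with Trichoplax Yap S81A. Of these 5 genes hth and Optix were called higher with Yki S168A and Trichoplax Yap S81A, none was called lower, and the mean of hth, 106 FPKM in the control, was 243 and 174 FPKM there. Hemocyte markers summed to 64.6 to 101 FPKM in the control, 37.1 to 68.6 FPKM with Monosiga Yap, 34.2 to 47.9 FPKM with Monosiga Yap-TBD, 36.5 to 40.0 FPKM with Yki S168A and 38.4 to 65.9 FPKM with Trichoplax Yap S81A. Antenna and head capsule markers summed to 119 to 127 FPKM in the control, 74.6 to 121 FPKM with Monosiga Yap, 52.9 to 56.5 FPKM with Monosiga Yap-TBD, 90.5 to 94.0 FPKM with Yki S168A and 87.8 to 102 FPKM with Trichoplax Yap S81A. Most of this sum came from dan and danr, at means of 46.6 and 70.4 FPKM in the control. Of the 6 matched genes, 4 were called lower with Monosiga Yap-TBD, 1 with Yki S168A and 2 with Trichoplax Yap S81A. Dll went the other way and was called higher with Yki S168A and Trichoplax Yap S81A. Its mean was 0.395 FPKM in the control and 7.7 and 4.37 FPKM there. Trichoplax Yap S81A replicate 1 stood apart in fat body genes (5 of the 7 listed were matched), whose levels summed to 4500 FPKM there and to between 0.684 and 44.9 FPKM in the other libraries. Of 6 glia markers, 3 were called lower and 1 higher with Monosiga Yap-TBD, 2 lower with Yki S168A, and 1 lower and 1 higher with Trichoplax Yap S81A. Of 5 tested brain neuroblast markers, 3, 0 and 1 were called lower and 0 higher in the same order. The neuroblast markers summed to 26.1 to 36.7 FPKM in the control and 23.7 to 57.2 FPKM with Monosiga Yap. Of 5 tested muscle markers 0 were called in these comparisons. The part of these other cell types in the results was not tested, and in bulk RNA a change in the number of cells of a type and a change in RNA per cell cannot be told apart.

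**Figure D1:**
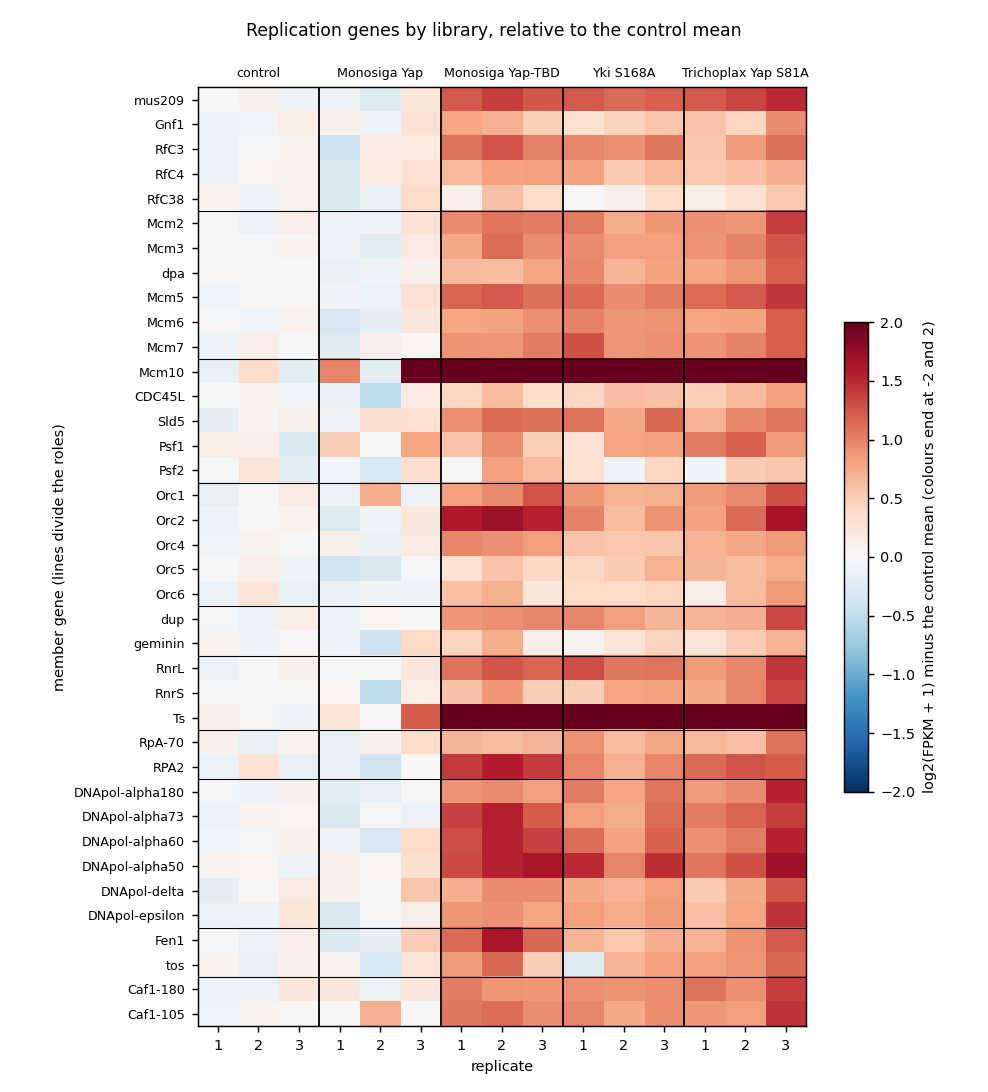
Level of each of the 38 replication genes (rows, divided by role) in each of the 15 libraries (columns, 3 replicates per group), as log2(FPKM + 1) minus the mean of the control libraries, with colours ending at -2 and 2. The control and Monosiga Yap columns are mostly pale, with Ts in Monosiga Yap replicate 3 and Mcm10 in its replicates 1 and 3 among the exceptions. Nearly every row is red in the other 3 groups.

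The heat map of all members by library shows the main contrast. Replication genes stood near the control with Monosiga Yap and well above it with Monosiga Yap-TBD, Yki S168A and Trichoplax Yap S81A. A gene was called when its limma adjusted p, on log2(FPKM + 1) and adjusted over the 9213 genes tested, was under 0.05. All 38 members were tested, and 36 of them had an FPKM of at least 1 in every library. The exceptions were Ts and Mcm10, which passed the filter on low values through the groups in which they were high and are described apart below. Each comparison with the control uses the same 3 control libraries, so the 4 comparisons are not independent of each other.

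With Monosiga Yap against the control, 0 of 38 members were called higher and 0 lower, beside 0.228% of all genes tested called higher and 0.0977% called lower by limma. At an unadjusted p under 0.05 there was 1 member, Mcm10 (p = 0.0369, limma adjusted p = 0.948), and the authors' deposited table has 0 members higher at an adjusted value under 0.05, where 0.336% of all genes tested are. The median log2 fold change of the members was -0.01, and that of all genes tested was -0.02. For mus209 the difference was -0.05 on the log2 scale, with a 95% confidence interval of -0.31 to 0.21, and for Mcm5 it was 0.03 with an interval of -0.23 to 0.28; differences within these intervals cannot be told from none. Every Monosiga Yap library lay above every control library for 0 members, beside 3.69% of all genes tested. Libraries of this group spread more than those of the control for several members, with replicate 3 the highest for most of them, as described with the variation between libraries below.

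The groups labelled with ectopic proliferation, called the 3 upper groups below, stood apart from the control. Against the same control libraries, 34 of 38 members rose with Monosiga Yap-TBD, where 12.6% of all genes tested rose. With Yki S168A 30 of 38 rose, beside 5.42% of all genes, and with Trichoplax Yap S81A 34 of 38 rose, beside 6.09% of all genes. In each of these 3 comparisons 0 members fell, while 12%, 6.52% and 6.09% of all genes tested were called lower. The median log2 fold change of the members was 0.92 with Monosiga Yap-TBD, 0.83 with Yki S168A and 0.99 with Trichoplax Yap S81A, beside 0.01, 0.00 and 0.04 for all genes tested. Leaving out Ts and Mcm10, the counts were 32, 28 and 32 of 36 and the medians 0.91, 0.82 and 0.95. Every library of the construct lay above every control library for 36 members with Monosiga Yap-TBD, 35 with Yki S168A and 36 with Trichoplax Yap S81A, beside 23.2%, 16.6% and 19.6% of all genes tested, and for 34, 33 and 34 of the 36 members other than Ts and Mcm10. In the same 3 comparisons, 5, 4 and 5 of the 5 matched photoreceptor markers fell, and their part in the rise of the members was not tested.

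**Figure D2:**
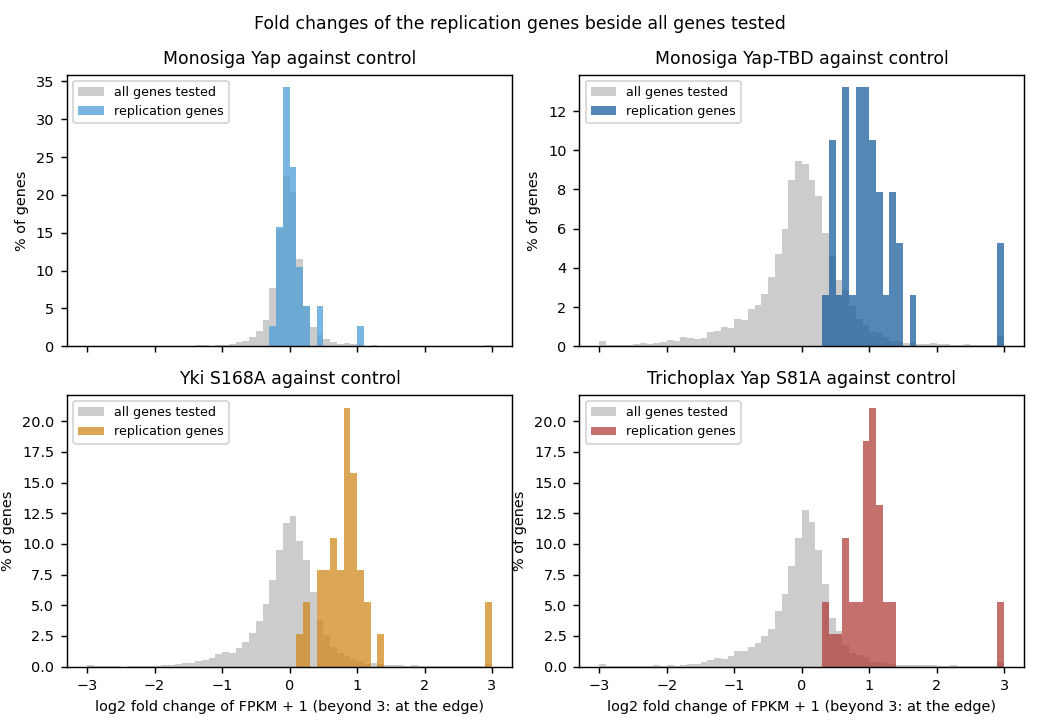
Distribution of log2 fold changes against the control (horizontal axis, bins of 0.1, values beyond 3 drawn at the edge) as a percentage of genes (vertical axis), for the 38 replication genes (coloured) and all 9213 genes tested (grey), in one panel per construct. The members sit on the grey peak with Monosiga Yap and to its right in the other 3 panels, with medians of 0.92, 0.83 and 0.99.

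The clamp gene mus209 was the most abundant member in the control, at 133 ± 7.99 FPKM (SD, n = 3), and lies at 2R 16149257 to 16150362 on the minus strand (dm3). It stood at 134, 141 and 125 FPKM in the control libraries and 122, 109.7 and 158 FPKM with Monosiga Yap. mus209 measured 313, 348 and 316 FPKM with Monosiga Yap-TBD, 313, 293 and 305 FPKM with Yki S168A and 314, 338 and 378 FPKM with Trichoplax Yap S81A. The lowest library of the 3 upper groups held 293 FPKM and the highest of the control and Monosiga Yap groups held 158 FPKM, so these groups did not overlap. It rose 2.44-fold with Monosiga Yap-TBD, 2.28-fold with Yki S168A and 2.58-fold with Trichoplax Yap S81A (log2 fold changes 1.28, 1.18 and 1.36, SE 0.12, limma adjusted p = 4.05e-06, 4.7e-05 and 7.46e-06).

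The clamp loader behaved less evenly. RfC3, a small subunit of replication factor C, rose from 11.4 ± 0.583 FPKM in the control to 25.9 ± 2.37 FPKM with Monosiga Yap-TBD, 23.4 ± 1.24 FPKM with Yki S168A and 21.4 ± 4.15 FPKM with Trichoplax Yap S81A (SD, n = 3; limma adjusted p = 0.000282, 0.00213 and 0.00512). RfC4, another small subunit, rose 1.73-fold with Monosiga Yap-TBD, 1.6-fold with Yki S168A and 1.55-fold with Trichoplax Yap S81A (limma adjusted p = 0.000913, 0.00618 and 0.00886). Gnf1, which encodes the large subunit, rose 1.61-fold with Monosiga Yap-TBD and 1.61-fold with Trichoplax Yap S81A (limma adjusted p = 0.00552 and 0.012), and its 1.37-fold difference with Yki S168A was not called (limma adjusted p = 0.0788). The call with Trichoplax Yap S81A was lost without replicate 3 of that group or without control replicate 1, where the limma adjusted p reached 0.0589. RfC38, a further small subunit, was called in none of the 3 comparisons and is described with the other uncalled members.

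All 6 MCM genes, which encode the subunits of the replicative helicase, rose with each of the 3 constructs. Their folds ranged from 1.63 (dpa, the fly Mcm4) to 2.29 (Mcm5) with Monosiga Yap-TBD, from 1.79 to 2.09 for the same genes with Yki S168A, and from 1.95 (Mcm6) to 2.44 (Mcm5) with Trichoplax Yap S81A. Mcm5 stood at 26.7, 28.2 and 28 FPKM in the control libraries and 26.3, 25 and 33.8 FPKM with Monosiga Yap. Mcm5 measured 63.2, 66.1 and 60.5 FPKM with Monosiga Yap-TBD, 61.4, 54.4 and 57.5 FPKM with Yki S168A and 60.8, 65.9 and 75.4 FPKM with Trichoplax Yap S81A. The 9 libraries of the upper groups lie between 54.4 and 75.4 FPKM, with the highest of them in Trichoplax Yap S81A replicate 3, and the other 6 lie between 25 and 33.8 FPKM. The changes of Mcm5 were 2.29-fold with Monosiga Yap-TBD, 2.09-fold with Yki S168A and 2.44-fold with Trichoplax Yap S81A (log2 fold changes 1.17, 1.04 and 1.25, SE 0.12, limma adjusted p = 7.74e-06, 0.000106 and 1.37e-05).

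Mcm7 was the most abundant subunit gene per length in all 5 groups and Mcm2 the least. Mcm7 was measured at 48.7, 56.8 and 50.4 FPKM in the control libraries and 43, 56.9 and 53.1 FPKM with Monosiga Yap. Mcm7 measured 97.2, 96.7 and 106 FPKM with Monosiga Yap-TBD, 126, 96.9 and 98.6 FPKM with Yki S168A and 97.3, 104 and 120.2 FPKM with Trichoplax Yap S81A. Its highest value, in Yki S168A replicate 1, lies well above the other libraries of its group, and the 3 upper groups again did not overlap with the control. It rose 1.93-fold with Monosiga Yap-TBD, 2.06-fold with Yki S168A and 2.06-fold with Trichoplax Yap S81A (log2 fold changes 0.93, 1.02 and 1.03, SE 0.13, limma adjusted p = 0.000155, 0.000266 and 0.00016). The mean level of Mcm7 over that of Mcm2 was 2.32 in the control, 2.18 with Monosiga Yap, 2.15 with Monosiga Yap-TBD, 2.54 with Yki S168A and 2.22 with Trichoplax Yap S81A, so the most and the least abundant gene stayed within a narrow range of each other while both rose.

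Among the activators of the helicase, CDC45L, the gene of Cdc45, rose least of those called. CDC45L stood at 26.2, 27.1 and 25.3 FPKM in the control libraries and 23.2, 18 and 29.9 FPKM with Monosiga Yap. CDC45L measured 35.2, 41.1 and 33.7 FPKM with Monosiga Yap-TBD, 35.1, 40.7 and 40 FPKM with Yki S168A and 36.7, 41.5 and 46.9 FPKM with Trichoplax Yap S81A. The upper groups all lie above 33 FPKM and the control below 28 FPKM, while Monosiga Yap replicate 3 at 29.9 FPKM lies between them. It rose 1.4-fold with Monosiga Yap-TBD, 1.47-fold with Yki S168A and 1.59-fold with Trichoplax Yap S81A (log2 fold changes 0.47, 0.54 and 0.64, SE 0.16, limma adjusted p = 0.044, 0.0392 and 0.0152). These calls are near the threshold: leaving out any 1 of the 6 libraries compared raised the limma adjusted p to between 0.0521 and 0.165 with Monosiga Yap-TBD and to between 0.055 and 0.117 with Yki S168A, and with Trichoplax Yap S81A it passed the threshold, up to 0.0718, without replicate 3 of that group or without control replicate 3.

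Of the GINS subunit genes, Sld5 rose from 9.28 ± 1.11 FPKM to 20.2 ± 1.69, 19.6 ± 2.93 and 18.4 ± 2.52 FPKM with Monosiga Yap-TBD, Yki S168A and Trichoplax Yap S81A (SD, n = 3; limma adjusted p = 0.000258, 0.00109 and 0.00157). Dak1 lies on the same strand over 2255 bases, nearly the whole of the Sld5 locus (3R 21879955 to 21882213). Dak1 averaged 42.6 FPKM in the control and 58.3, 42.2 and 44.7 FPKM in those groups. Reads of Sld5 may therefore include those of Dak1, and the rises given for Sld5 are uncertain to that extent. The authors' adjusted values for Sld5 were 0.104, 0.101 and 0.252. Psf1 rose 1.69-fold with Monosiga Yap-TBD and 2.21-fold with Trichoplax Yap S81A (limma adjusted p = 0.044 and 0.00779), and its 1.65-fold difference with Yki S168A missed the threshold (limma adjusted p = 0.0878). With Monosiga Yap-TBD the Psf1 call was lost on leaving out replicate 1 or 2 of that group or any control library, with a limma adjusted p of up to 0.172. It was also lost with the replicate block and without the filter on low values. Psf2, another subunit gene, was called in none of these comparisons, and the differences between the subunit genes were not tested.

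In the origin recognition complex, 4 of 5 genes rose with each of the 3 constructs. Orc2, a core subunit at 3R 9790639 to 9792803 (dm3), moved most: it stood at 6.02, 6.44 and 6.83 FPKM in the control libraries and 5.15, 6.11 and 7.58 FPKM with Monosiga Yap. Orc2 measured 21.5, 22.9 and 20.9 FPKM with Monosiga Yap-TBD, 13.7, 10.5 and 12.9 FPKM with Yki S168A and 12, 15.3 and 22.3 FPKM with Trichoplax Yap S81A. The Monosiga Yap-TBD libraries lie close together, those of Trichoplax Yap S81A spread from 12 to 22.3 FPKM, and none of the 3 upper groups overlapped with the control. Orc2 rose 3.38-fold with Monosiga Yap-TBD, 1.92-fold with Yki S168A and 2.57-fold with Trichoplax Yap S81A (log2 fold changes 1.62, 0.84 and 1.20, SE 0.19, limma adjusted p = 3.21e-05, 0.0114 and 0.000874).

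Orc4 was the most abundant gene of the complex, at 21.2, 22.9 and 22 FPKM in the control libraries and 24, 19.8 and 25 FPKM with Monosiga Yap. Orc4 measured 44, 42.2 and 40.2 FPKM with Monosiga Yap-TBD, 33.1, 32.3 and 32.7 FPKM with Yki S168A and 36.4, 38.3 and 40.8 FPKM with Trichoplax Yap S81A. The Yki S168A libraries are the lowest of the 3 upper groups and overlap with neither of the others, while Monosiga Yap-TBD and Trichoplax Yap S81A overlap by 1 library. Orc4 rose 1.91-fold with Monosiga Yap-TBD, 1.49-fold with Yki S168A and 1.75-fold with Trichoplax Yap S81A (log2 fold changes 0.91, 0.55 and 0.78, SE 0.10, limma adjusted p = 1.99e-05, 0.0031 and 0.000185).

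Orc1 and Orc5 also rose. Orc1, the gene of an ATP-binding subunit, changed 2.13-fold with Monosiga Yap-TBD, 1.76-fold with Yki S168A and 2.15-fold with Trichoplax Yap S81A (limma adjusted p = 0.00309, 0.0329 and 0.0057), and its call with Yki S168A was lost without any of the 3 Yki S168A libraries or without control replicate 1 or 2, with a limma adjusted p of up to 0.116. In Monosiga Yap replicate 2 Orc1 stood at 15.4 FPKM, near the upper groups, while the other libraries of that group held 8.12 and 8.17 FPKM. Orc5 changed 1.39-fold with Monosiga Yap-TBD, 1.51-fold with Yki S168A and 1.69-fold with Trichoplax Yap S81A (limma adjusted p = 0.0349, 0.0197 and 0.00428). Its call with Monosiga Yap-TBD was lost without replicate 2 or 3 of that group or any control library (limma adjusted p up to 0.139), and with Yki S168A without replicate 2 or 3 of that group or control replicate 1 or 3 (up to 0.0912). Orc2 had the lowest mean of the complex in the control, at 6.43 FPKM, and Orc5 had it in the 3 upper groups, at 11.2, 12.2 and 13.6 FPKM.

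The licensing pair moved unequally. For dup, which encodes the Cdt1 protein that brings the helicase to origins, the values were 14.9, 14.2 and 17.2 FPKM in the control libraries and 14, 15.8 and 15.5 FPKM with Monosiga Yap. dup measured 28.9, 30 and 30.9 FPKM with Monosiga Yap-TBD, 31.4, 28.2 and 25.1 FPKM with Yki S168A and 25.6, 26.2 and 39.8 FPKM with Trichoplax Yap S81A. All upper libraries lie above 25 FPKM and all others below 18 FPKM, and Trichoplax Yap S81A replicate 3 exceeds every other library. It rose 1.94-fold with Monosiga Yap-TBD, 1.83-fold with Yki S168A and 1.98-fold with Trichoplax Yap S81A (log2 fold changes 0.92, 0.83 and 0.92, SE 0.15, limma adjusted p = 0.000575, 0.00305 and 0.00122).

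The gene of its inhibitor, geminin, was the second most abundant member in the control and was called in none of these comparisons. It was measured at 89, 81.5 and 87.1 FPKM in the control libraries and 80.2, 64.4 and 113 FPKM with Monosiga Yap. geminin measured 117, 145 and 94.5 FPKM with Monosiga Yap-TBD, 90.6, 104 and 117 FPKM with Yki S168A and 103, 123 and 139.6 FPKM with Trichoplax Yap S81A. The upper groups all lie above the control, by a margin of less than 2 FPKM in the lowest Yki S168A library, and Monosiga Yap replicate 3 lies among them. Its ratios to the control were 1.38, 1.21 and 1.42 in the order used above (log2 differences 0.44, 0.27 and 0.49, SE 0.20, limma adjusted p = 0.12, 0.448 and 0.126). Taken library by library, the FPKM of geminin over that of dup averaged 5.59 in the control and 5.71 with Monosiga Yap, against 3.97 with Monosiga Yap-TBD, 3.75 with Yki S168A and 4.08 with Trichoplax Yap S81A. The ranges were 5.07 to 5.96 in the control, 4.08 to 7.31, 3.05 to 4.82, 2.89 to 4.66 and 3.51 to 4.69, so each of the 3 upper groups lay below the control without overlap. This ratio was not tested.

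Nucleotide supply was represented by ribonucleotide reductase, which makes the deoxynucleotides, and by thymidylate synthase. The large subunit gene RnrL rose from 32.3 ± 2.48 FPKM to 73.6 ± 4.1, 72.3 ± 7.09 and 70 ± 15 FPKM (SD, n = 3; limma adjusted p = 2.75e-05, 0.000152 and 0.000145). The small subunit gene RnrS stood at 60.9, 60.5 and 58.5 FPKM in the control libraries and 62, 41.6 and 66.9 FPKM with Monosiga Yap. RnrS measured 90.3, 109.8 and 84.9 FPKM with Monosiga Yap-TBD, 84.6, 104 and 105 FPKM with Yki S168A and 102, 119 and 153 FPKM with Trichoplax Yap S81A. The control libraries lie within 3 FPKM of each other, the upper groups begin at 84.6 FPKM, and Trichoplax Yap S81A replicate 3 is the highest by more than 30 FPKM. RnrS rose 1.58-fold with Monosiga Yap-TBD, 1.63-fold with Yki S168A and 2.08-fold with Trichoplax Yap S81A (log2 fold changes 0.65, 0.69 and 1.02, SE 0.18, limma adjusted p = 0.0176, 0.023 and 0.00172), and its smaller fold than that of RnrL was not tested.

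The RnrS calls with Monosiga Yap-TBD and Yki S168A did not hold in every fit that left out 1 library. Over those fits the log2 fold change stayed within 0.54 to 0.72 and 0.64 to 0.79. With Monosiga Yap-TBD the call was lost without replicate 2 of that group or control replicate 3, with a limma adjusted p of up to 0.0826, and with Yki S168A without replicate 2 or 3 or any control library, with up to 0.0841. The ratio of RnrS to RnrL, which was not tested, averaged 1.87 in the control, 1.65 with Monosiga Yap, 1.29 with Monosiga Yap-TBD, 1.37 with Yki S168A and 1.79 with Trichoplax Yap S81A.

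The gene of thymidylate synthase, Ts, and that of the initiation factor Mcm10 had the largest differences of all members, and both need separate reading. Ts lies at 2L 2968293 to 2969620 on the minus strand (dm3) and overlaps the RNA-binding protein gene Rbp9 on the other strand by 142 bases. Ts was listed at 0.155, 0.0679 and 0.0383 FPKM in the control libraries and 0.298, 0.053 and 1.5 FPKM with Monosiga Yap. Ts measured 41.4, 51.2 and 41.8 FPKM with Monosiga Yap-TBD, 33, 28.2 and 37.8 FPKM with Yki S168A and 40.3, 39.5 and 43.7 FPKM with Trichoplax Yap S81A. Rbp9 was listed at 15.2, 12.8 and 17.6 FPKM in the control libraries, 11.9, 17.3 and 15.1 FPKM with Monosiga Yap, 1.04, 1.04 and 1.31 FPKM with Monosiga Yap-TBD, 3.31, 5.18 and 3.62 FPKM with Yki S168A and 2.41, 3.11 and 4.0 FPKM with Trichoplax Yap S81A. In the 6 control and Monosiga Yap libraries Ts was low and Rbp9 high, and in the other 9 Ts was high and Rbp9 low.

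Mcm10, at 2L 21179941 to 21182812 on the plus strand, overlaps the receptor tyrosine kinase gene Ret on the other strand by 419 bases. Its values were 0.0637, 0.516 and 0.0189 FPKM in the control libraries and 1.33, 0.00653 and 5.28 FPKM with Monosiga Yap. Mcm10 measured 12.2, 13.1 and 12.6 FPKM with Monosiga Yap-TBD, 9.24, 11.2 and 11.4 FPKM with Yki S168A and 11, 13 and 17.7 FPKM with Trichoplax Yap S81A. Ret stood at 4.13, 2.98 and 3.75 FPKM in the control, 2.15, 3.2 and 0.468 FPKM with Monosiga Yap, 0.396, 0.271 and 0.487 FPKM with Monosiga Yap-TBD, 0.269, 0.296 and 0.363 FPKM with Yki S168A and 0.363, 0.253 and 0.325 FPKM with Trichoplax Yap S81A. Within Monosiga Yap, replicate 3 has the highest Mcm10 and the lowest Ret, and replicate 2 the reverse.

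The sources used here do not say that strand was kept or used in counting, so reads within the overlaps cannot be told apart, although most of each gene lies outside them. No fold is given for Ts or Mcm10, since their control libraries lie near 0 and a fold would rest on those values. The authors' deposited table lists a log ratio of 0 for Ts, Rbp9, Mcm10 and Ret in all 4 of its comparisons with the control. In the limma fit Ts and Mcm10 were called higher with Monosiga Yap-TBD, Yki S168A and Trichoplax Yap S81A, and the counts above are given with and without them.

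**Figure D3:**
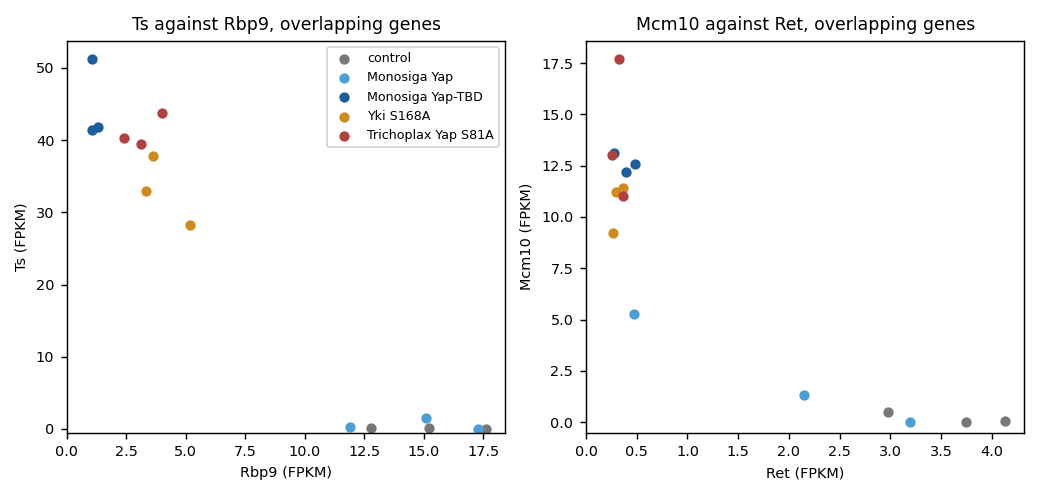
FPKM of Ts (vertical) against Rbp9 (horizontal, left panel) and of Mcm10 against Ret (right panel), genes that overlap on opposite strands, with 1 point per library coloured by group. The control and Monosiga Yap points lie at the lower right for Ts, at or below 1.5 FPKM, and the other 3 groups at the upper left, at or above 28.2 FPKM; for Mcm10 the Monosiga Yap points run between the control and the rest.

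In all, 14 members overlap another gene in the deposited coordinates, 12 of them on the other strand only. Apart from Ts and Mcm10, these are RfC38, Mcm3, CDC45L, Orc1, Orc5, Orc6, dup, DNApol-delta, Fen1 and tos on the other strand and Sld5 and DNApol-alpha50 on the same strand. The overlaps span from 6 bases (CDC45L) to 2526 bases, the whole of tos, which lies inside CG31751. Its reads may therefore include those of CG31751, and the folds given for tos below are uncertain to that extent. CG31751 averaged 5.52 FPKM in the control and 4.73, 7.27 and 5.84 FPKM in the 3 upper groups.

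Both genes of replication protein A rose. RpA-70, the large subunit that binds single-stranded DNA, changed 1.59-fold with Monosiga Yap-TBD, 1.71-fold with Yki S168A and 1.75-fold with Trichoplax Yap S81A (limma adjusted p = 0.00447, 0.0037 and 0.00288). RPA2, the middle subunit, lies at 2L 20924975 to 20926144 (dm3) and stood at 53.4, 71.5 and 52.4 FPKM in the control libraries and 52.4, 44 and 58.5 FPKM with Monosiga Yap. RPA2 measured 155, 176 and 156 FPKM with Monosiga Yap-TBD, 116, 96.8 and 116 FPKM with Yki S168A and 130.1, 142 and 137 FPKM with Trichoplax Yap S81A. Control replicate 2 lies above the other control libraries, and no control library reached the lowest Yki S168A library. RPA2 rose 2.74-fold with Monosiga Yap-TBD, 1.85-fold with Yki S168A and 2.31-fold with Trichoplax Yap S81A (log2 fold changes 1.45, 0.89 and 1.21, SE 0.14, limma adjusted p = 3.72e-06, 0.000815 and 6.24e-05). The ratio of RPA2 to RpA-70, which was not tested, averaged 1.16 in the control (0.963 to 1.53) and 0.933 with Monosiga Yap (0.799 to 1.12). It averaged 1.97 with Monosiga Yap-TBD (1.86 to 2.18), 1.23 with Yki S168A (1.2 to 1.3) and 1.54 with Trichoplax Yap S81A (1.24 to 1.8), and only the Monosiga Yap-TBD range lies clear of the control.

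All 6 polymerase genes rose with each construct. DNApol-alpha50, the catalytic primase subunit, had the lowest control level of the polymerase genes and the largest fold with each construct. It was measured at 3.68, 3.63 and 3.19 FPKM in the control libraries and 3.79, 3.6 and 4.59 FPKM with Monosiga Yap. DNApol-alpha50 measured 10.1, 12 and 12.9 FPKM with Monosiga Yap-TBD, 11.6, 7.82 and 11.5 FPKM with Yki S168A and 8.41, 9.86 and 13.4 FPKM with Trichoplax Yap S81A. The control libraries lie between 3.19 and 3.68 FPKM, and the lowest upper library, Yki S168A replicate 2, holds 7.82 FPKM. The gene rose 3.33-fold with Monosiga Yap-TBD, 2.95-fold with Yki S168A and 3.02-fold with Trichoplax Yap S81A (log2 fold changes 1.49, 1.31 and 1.34, SE 0.19, limma adjusted p = 5.98e-05, 0.000558 and 0.000328). CG7083 lies within this locus on the same strand, over 1648 bases. It averaged 17.5 FPKM in the control and 15.9, 12.9 and 17.7 FPKM in the 3 upper groups. Reads of DNApol-alpha50 may therefore include those of CG7083, and the folds given for DNApol-alpha50 are uncertain to that extent.

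The catalytic subunit of polymerase alpha, DNApol-alpha180, was the most abundant polymerase gene in the control, at 7.94, 7.59 and 8.62 FPKM in the control libraries and 6.67, 7.09 and 8.16 FPKM with Monosiga Yap. DNApol-alpha180 measured 15.8, 16.4 and 15.1 FPKM with Monosiga Yap-TBD, 17.5, 14.6 and 18 FPKM with Yki S168A and 15.3, 16.4 and 25.3 FPKM with Trichoplax Yap S81A. Its 9 upper libraries lie between 14.6 and 18 FPKM except Trichoplax Yap S81A replicate 3 at 25.3 FPKM, and the control and Monosiga Yap do not exceed 8.62 FPKM. It rose 1.96-fold with Monosiga Yap-TBD, 2.07-fold with Yki S168A and 2.36-fold with Trichoplax Yap S81A (log2 fold changes 0.89, 0.96 and 1.11, SE 0.17, limma adjusted p = 0.00134, 0.0019 and 0.000504). The regulatory subunit gene DNApol-alpha73 rose 2.88, 2.03 and 2.51-fold in the same order (limma adjusted p = 1.48e-05, 0.00152 and 0.000143), and the second primase subunit gene, DNApol-alpha60, 2.96, 2.27 and 2.53-fold (limma adjusted p = 0.000161, 0.00392 and 0.00145).

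The replicative polymerases on the clamp rose as well. DNApol-delta, the catalytic subunit of polymerase delta, changed 1.99-fold with Monosiga Yap-TBD, 1.83-fold with Yki S168A and 1.99-fold with Trichoplax Yap S81A (limma adjusted p = 0.00586, 0.0242 and 0.0137). DNApol-epsilon, that of polymerase epsilon, changed 1.97-fold with Monosiga Yap-TBD, 1.89-fold with Yki S168A and 2.17-fold with Trichoplax Yap S81A (limma adjusted p = 0.00621, 0.0176 and 0.00652). With Yki S168A the DNApol-delta call was lost without any Yki S168A library or control replicate 1 or 2 (limma adjusted p up to 0.0975) and the DNApol-epsilon call without Yki S168A replicate 1 or 3 or control replicate 1 or 2 (up to 0.071). With Trichoplax Yap S81A the DNApol-delta call was lost without replicate 3 or control replicate 1 (up to 0.0682).

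Fen1 encodes the flap endonuclease that trims the ends of Okazaki fragments, and it stood at 11.9, 10.7 and 13.1 FPKM in the control libraries and 9.51, 10.3 and 17.3 FPKM with Monosiga Yap. Fen1 measured 27.4, 39 and 27.6 FPKM with Monosiga Yap-TBD, 19.9, 17.6 and 20.2 FPKM with Yki S168A and 19.9, 22.9 and 29.1 FPKM with Trichoplax Yap S81A. Monosiga Yap-TBD replicate 2 is the highest library, Monosiga Yap replicate 3 lies above the control and near the Yki S168A libraries, and all upper libraries exceed those of the control. Fen1 rose 2.62-fold with Monosiga Yap-TBD and 2.01-fold with Trichoplax Yap S81A, and its 1.61-fold difference with Yki S168A was not called (log2 fold changes 1.31, 0.65 and 0.94, SE 0.21, limma adjusted p = 0.000375, 0.0595 and 0.00862). The exonuclease gene tos, the fly Exo1, rose 1.98-fold and 2.14-fold with Monosiga Yap-TBD and Trichoplax Yap S81A (limma adjusted p = 0.0369 and 0.0342) and was 1.49 times the control with Yki S168A (limma adjusted p = 0.37), where replicate 1 held 3.66 FPKM and the others 8.04 and 8.98 FPKM. The tos call with Trichoplax Yap S81A was lost on leaving out any 1 library (limma adjusted p 0.0578 to 0.13), and with Monosiga Yap-TBD without replicate 1 or 2 or any control library (up to 0.147).

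Chromatin assembly factor 1 deposits histones on the new DNA. Its large subunit gene Caf1-180 was measured at 14.7, 14.8 and 19 FPKM in the control libraries and 18.8, 14.6 and 18.8 FPKM with Monosiga Yap. Caf1-180 measured 33.5, 30.6 and 30 FPKM with Monosiga Yap-TBD, 31.1, 30.6 and 31.5 FPKM with Yki S168A and 35.1, 31.2 and 43.6 FPKM with Trichoplax Yap S81A. The 9 upper libraries lie between 30 and 43.6 FPKM and the other 6 do not exceed 19 FPKM. Caf1-180 rose 1.94-fold with Monosiga Yap-TBD, 1.92-fold with Yki S168A and 2.27-fold with Trichoplax Yap S81A (log2 fold changes 0.92, 0.91 and 1.13, SE 0.14, limma adjusted p = 0.000317, 0.00102 and 0.000145). Caf1-105, another subunit gene, rose 2.19-fold with Monosiga Yap-TBD, 1.97-fold with Yki S168A and 2.25-fold with Trichoplax Yap S81A (limma adjusted p = 0.00185, 0.0102 and 0.00332), and Monosiga Yap replicate 2 stood out at 13 FPKM beside 7.54 and 7.26 FPKM in the other libraries of its group.

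**Figure D4:**
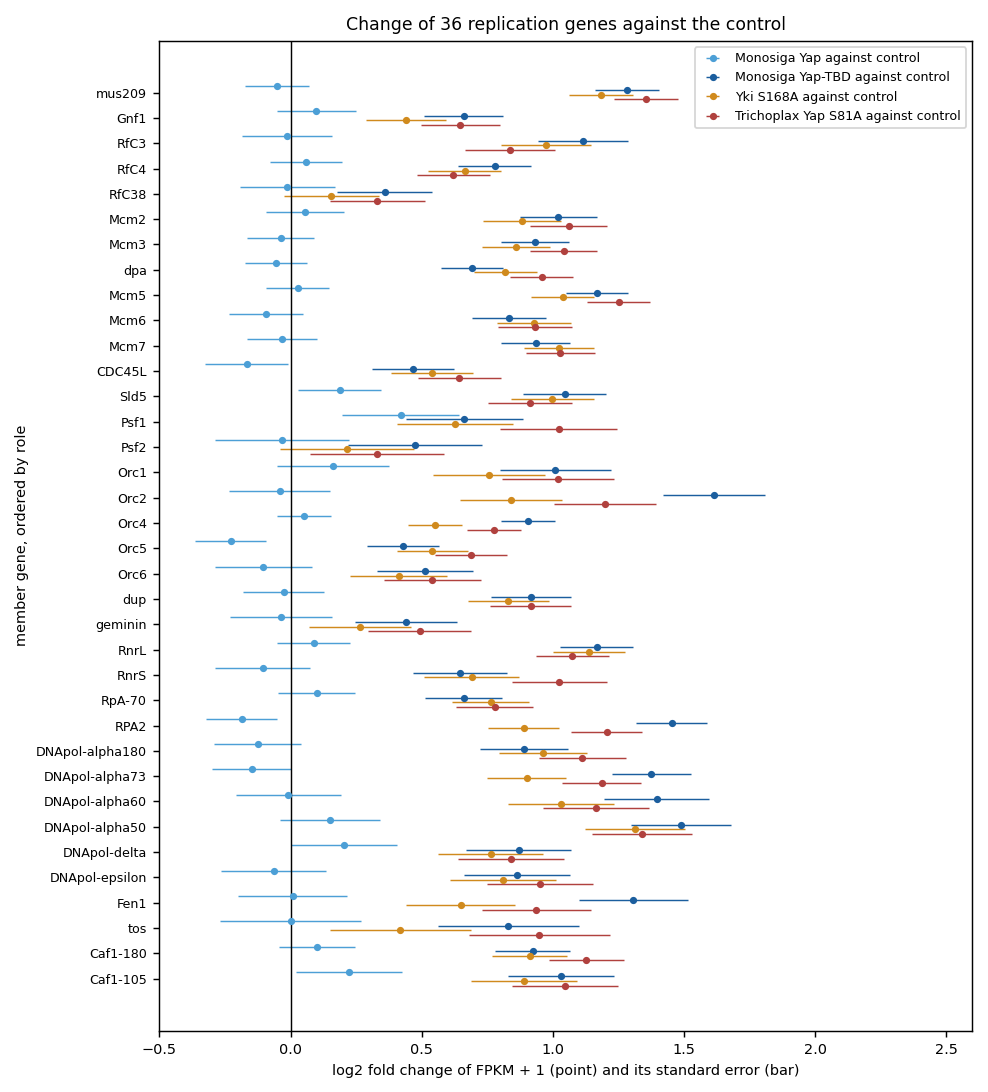
Log2 fold change of FPKM + 1 against the control (point, horizontal axis) and its standard error (bar) for the 36 members other than Ts and Mcm10, ordered by role, with 1 colour per construct. Monosiga Yap lies around 0, between -0.23 (Orc5) and 0.42 (Psf1), and the other 3 constructs lie to the right of 0 for each gene shown, from 0.16 (RfC38 with Yki S168A) to 1.62 (Orc2 with Monosiga Yap-TBD).

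RfC38, Psf2, Orc6 and geminin were called in none of the 3 comparisons, as the plot of fold changes by role shows. RfC38 stood at 16.7, 14.9 and 16.8 FPKM in the control libraries and 13, 14.5 and 21.4 FPKM with Monosiga Yap. RfC38 measured 17.8, 24.8 and 20.7 FPKM with Monosiga Yap-TBD, 16.1, 17.4 and 20.9 FPKM with Yki S168A and 18, 20.1 and 23.8 FPKM with Trichoplax Yap S81A. All libraries of Monosiga Yap-TBD and Trichoplax Yap S81A lie above those of the control, the lowest at 17.8 FPKM beside 16.8 FPKM. Yki S168A replicate 1 lies within the control range, and Monosiga Yap replicate 3 lies above most upper libraries. The log2 differences were 0.36, 0.16 and 0.33 (SE 0.18), with 95% confidence intervals of -0.03 to 0.75, -0.23 to 0.55 and -0.06 to 0.72 (limma adjusted p = 0.174, 0.659 and 0.281). Its partner on the other strand, the nucleoporin gene Nup160, overlaps it by 406 bases and averaged 19.9 FPKM in the control and 31.9, 32.4 and 31.1 FPKM in these groups.

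Psf2 was listed at 9.73, 12.1 and 8.39 FPKM in the control libraries and 9.52, 7.63 and 12.7 FPKM with Monosiga Yap. Psf2 measured 9.7, 18.4 and 16.1 FPKM with Monosiga Yap-TBD, 12.6, 9.37 and 13.7 FPKM with Yki S168A and 9.33, 14.7 and 15.2 FPKM with Trichoplax Yap S81A. Each upper group has at least 1 library inside the control range of 8.39 to 12.1 FPKM. The log2 differences were 0.47, 0.22 and 0.33 (SE 0.26), with intervals of -0.08 to 1.02, -0.33 to 0.77 and -0.22 to 0.88 (limma adjusted p = 0.205, 0.666 and 0.468). Sld5 rose by 1.04 on the same scale with Monosiga Yap-TBD, and its difference from Psf2 was not tested.

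For Orc6, the subunit that is the least conserved of the complex, the values were 9.93, 13.5 and 9.76 FPKM in the control libraries and 9.68, 10.2 and 10.4 FPKM with Monosiga Yap. Orc6 measured 17.2, 18.4 and 13 FPKM with Monosiga Yap-TBD, 14.8, 14.7 and 15.1 FPKM with Yki S168A and 12.2, 17.4 and 20.6 FPKM with Trichoplax Yap S81A. Control replicate 2, at 13.5 FPKM, lies above the lowest library of Monosiga Yap-TBD and of Trichoplax Yap S81A, and the Yki S168A libraries lie above the control by more than 1 FPKM. The log2 differences of Orc6 were 0.51, 0.41 and 0.54 (SE 0.18), close to the threshold with Monosiga Yap-TBD (limma adjusted p = 0.0567, 0.176 and 0.0741).

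The authors' deposited table, made with their own comparison of each construct with the control, lists 28 of 38 members as higher with Monosiga Yap-TBD at an adjusted value under 0.05, beside 8.75% of all genes tested. It lists 24 with Yki S168A, beside 5.6%, and 27 with Trichoplax Yap S81A, beside 4.48%. All of these were also called by limma. The members called by limma alone were Mcm10, Ts, Sld5 and Orc5 in each comparison, with CDC45L and Psf1 for Monosiga Yap-TBD, CDC45L and Orc4 for Yki S168A, and RfC3, RfC4 and Psf1 for Trichoplax Yap S81A.

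The comparison of Monosiga Yap-TBD with Monosiga Yap sets the protein with the added human segment beside the one without it and uses no control library. Between them 34 of 38 members rose, where 14.3% of all genes tested rose, and 0 fell, where 12.2% did. The median log2 fold change of the members was 0.89, beside 0.03 for all genes tested, and 0.86 over the 36 members other than Ts and Mcm10, of which 32 rose. For 34 members every Monosiga Yap-TBD library lay above every Monosiga Yap library, beside 18.3% of all genes tested. Leaving out Ts and Mcm10, this held for 32 of 36 members. RPA2 rose 3.14-fold, from 51.6 ± 7.25 FPKM to 162 ± 11.5 FPKM (SD, n = 3; limma adjusted p = 1.28e-06), Orc2 3.47-fold (limma adjusted p = 2.88e-05) and mus209 2.51-fold (limma adjusted p = 2.84e-06).

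The members not called between these groups were Psf1, Psf2, geminin and RfC38. Psf1 had the smallest difference, 0.24 on the log2 scale (95% confidence interval -0.24 to 0.72, limma adjusted p = 0.482). Orc6, uncalled against the control, was called here, at 10.1 ± 0.391 FPKM with Monosiga Yap and 16.2 ± 2.88 FPKM with Monosiga Yap-TBD (SD, n = 3; limma adjusted p = 0.0232). Of the 34 calls, 29 held on leaving out each library in turn. Those lost were Gnf1 without replicate 1 or 2 of Monosiga Yap-TBD or replicate 2 of Monosiga Yap (limma adjusted p up to 0.0604) and Orc6 without replicate 1 or 2 of either group (up to 0.101). RpA-70 was lost without Monosiga Yap replicate 1 (0.0576), DNApol-delta without replicate 2 or 3 of Monosiga Yap-TBD or replicate 1 or 2 of Monosiga Yap (up to 0.0994), and tos without replicate 1 or 2 of either group (up to 0.146).

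The constructs labelled with strong proliferation were then set beside Yki S168A, labelled with a middle degree. Against Yki S168A, 2 of 38 members were higher with Monosiga Yap-TBD, beside 3.39% of all genes tested called higher and 3.74% called lower, and 0 members were lower. Orc2 averaged 21.8 ± 1.05 FPKM with Monosiga Yap-TBD and 12.4 ± 1.69 FPKM with Yki S168A (SD, n = 3), a ratio of 1.76 (log2 difference 0.78, 95% confidence interval 0.36 to 1.19, limma adjusted p = 0.0258). RPA2 averaged 162 ± 11.5 FPKM and 109.6 ± 11.1 FPKM, a ratio of 1.48 (log2 difference 0.56, 95% confidence interval 0.27 to 0.86, limma adjusted p = 0.0209). For each of these genes all 3 Monosiga Yap-TBD libraries lay above all 3 Yki S168A libraries, in the values given above. Both calls were lost without Yki S168A replicate 2, without Monosiga Yap-TBD replicate 1 and without its replicate 2, and that of Orc2 also without its replicate 3, with limma adjusted p of up to 0.136 for Orc2 and 0.122 for RPA2.

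For the other 36 members no difference between Monosiga Yap-TBD and Yki S168A was called. The intervals of mus209 (-0.16 to 0.36 on the log2 scale), Mcm5 (-0.13 to 0.39), Mcm7 (-0.38 to 0.20) and RnrL (-0.27 to 0.32) bound what could have been missed. Wider differences remained for Fen1, at 0.66 (0.21 to 1.10, limma adjusted p = 0.0806), DNApol-alpha73, at 0.47 (0.15 to 0.80, limma adjusted p = 0.0827), and Orc4, at 0.36 (0.14 to 0.58, limma adjusted p = 0.0533). The libraries of the 2 groups did not overlap for 9 members, all higher with Monosiga Yap-TBD, beside 12.7% of all genes tested higher and 12.9% lower. These were mus209, Mcm10, Orc2, Orc4, Ts, RPA2, DNApol-alpha73, DNApol-alpha60 and Fen1, or 7 of the 36 members other than Ts and Mcm10. The median difference over the members was 0.12, beside 0.01 for all genes tested.

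Between Trichoplax Yap S81A and Yki S168A, 0 of 38 members were called by limma in either direction, beside 0.347% of all genes tested called higher and 0.163% called lower. At an unadjusted p under 0.05 there were 2, RPA2 (log2 difference 0.32, interval 0.02 to 0.61) and Orc4 (0.23, 0.01 to 0.45). With array weights, an alternative that lets limma weight libraries by their spread, 5 were called higher, beside 4.7% of all genes tested under the same weights. The median difference of the members was 0.17, beside 0.02 for all genes tested, and was 0.04 without Trichoplax Yap S81A replicate 3. Every Trichoplax Yap S81A library lay above every Yki S168A library for 5 members, beside 6.91% of all genes tested, and below for 0, beside 4.29%. Leaving out Ts and Mcm10, these counts were 4 and 0 of 36. Between Trichoplax Yap S81A and Monosiga Yap-TBD, 0 members were called by limma, beside 3.33% of all genes tested called higher and 2.98% called lower. There dpa and Orc2 had an unadjusted p under 0.05, every Trichoplax Yap S81A library lay above every Monosiga Yap-TBD library for 2 members (13.3% of all genes tested) and below for 1 (10.9%), array weights called 3 higher and 1 lower (10.6% and 8.33% of all genes tested under them), and the median difference was 0.02, or -0.13 without Trichoplax Yap S81A replicate 3. The difference for mus209 was 0.07 (95% confidence interval -0.19 to 0.33) and that for Orc2 was -0.42 (-0.83 to -0.00).

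**Figure D5:**
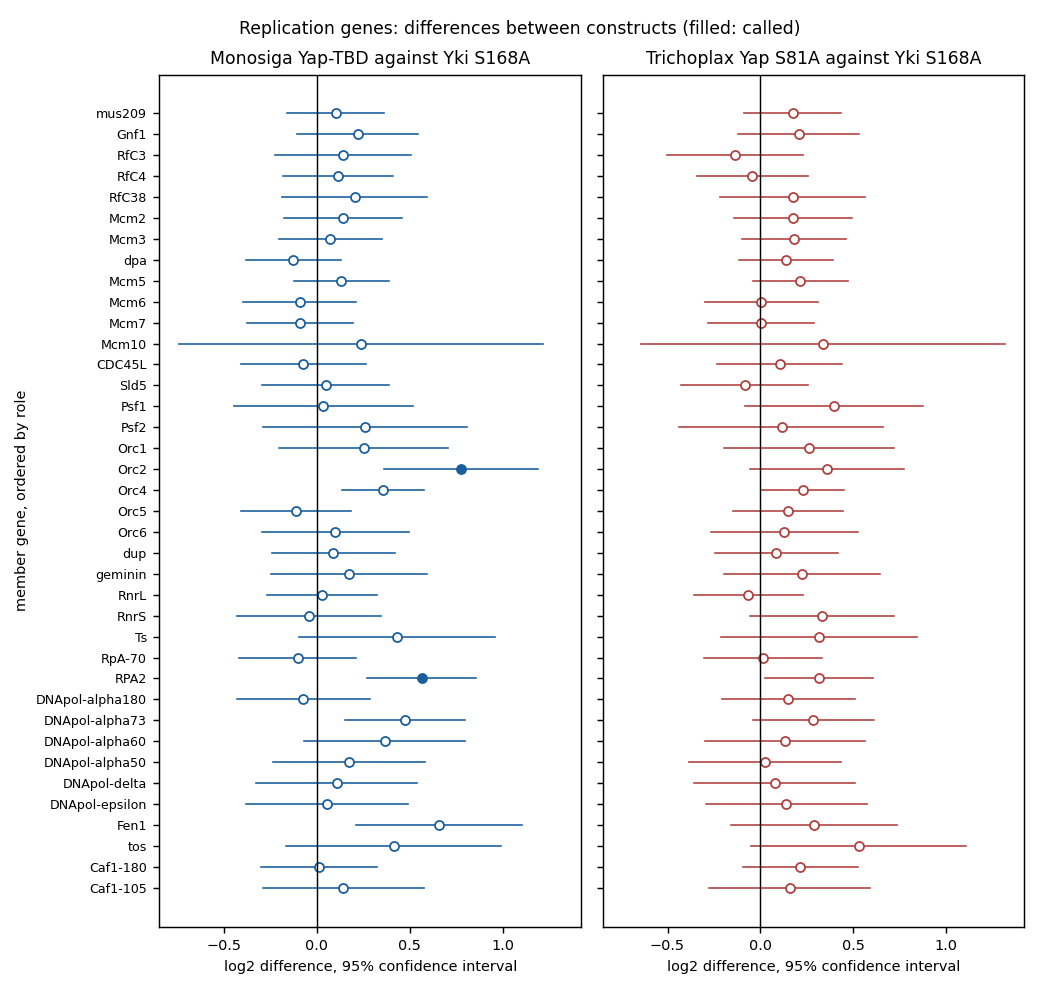
Log2 difference (point) and 95% confidence interval (bar) of each of the 38 members between Monosiga Yap-TBD and Yki S168A (left) and between Trichoplax Yap S81A and Yki S168A (right), filled where called. Orc2 (0.78) and RPA2 (0.56) are filled on the left and no point is filled on the right, and most intervals include 0.

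Members moved together between libraries of a group as well as between groups. Trichoplax Yap S81A replicate 3 was the highest of its 3 libraries for 36 of 38 members, while it was the highest for 46.1% of all genes tested. The median log2 deviation of the members from their group mean was 0.26 in this library, beside 0.04 for all genes tested. Replicate 1 of that group was the lowest for 30 members, with a median deviation of -0.17 beside -0.05 for all genes tested. This library also held the high fat body genes, and a link was not tested. The share of all genes that were lowest in a given library was not computed. Without replicate 1, 34 members were called higher against the control, without replicate 2 there were 33 and without replicate 3 there were 30. The share of all genes called in these fits is not given here.

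Monosiga Yap replicate 3 was the highest of its group for 32 members, beside 50.2% of all genes tested, with a median deviation of 0.22 beside 0.11. Monosiga Yap-TBD replicate 2 was the highest for 26 members, beside 48.1% of all genes, and Yki S168A replicate 2 the lowest for 28. In that Yki S168A library the median deviation of the members was -0.07, beside 0.01 for all genes tested. In the control no library was the highest for more than 19 members. The median member stood at 13.3, 13.8 and 14.9 FPKM in the control libraries, 28.2, 30.3 and 28.6 FPKM with Monosiga Yap-TBD, 24.6, 25.2 and 24.9 FPKM with Yki S168A and 22.7, 24.6 and 34.4 FPKM with Trichoplax Yap S81A.

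Other genes of DNA replication that are not members moved in the same direction for the most part. Of 36 listed symbols 27 were found and tested; 20 rose and 1 fell with Monosiga Yap-TBD, 13 rose and 1 fell with Yki S168A, and 19 rose and 1 fell with Trichoplax Yap S81A, beside the backgrounds given for these comparisons. With Monosiga Yap 0 were called in either direction. Ranked by their largest log2 fold change over the 3 constructs, the first were CG13690, from 9.02 ± 0.766 FPKM to 37.5 ± 4.13, 20.2 ± 4.04 and 29.1 ± 5.93 FPKM (SD, n = 3; limma adjusted p = 6.17e-06, 0.00258 and 0.000117), CG11788, from 9.33 FPKM to 23.5, 19.4 and 28.9 FPKM (0.000411, 0.00597 and 0.000149), and CG10336, from 12.3 FPKM to 32.7, 28.0 and 36.7 FPKM (6.01e-05, 0.000815 and 7.14e-05). CG32251, which RefSeq names Claspin, a mediator of the replication checkpoint, rose from 5.34 FPKM to 12.1, 13.9 and 15.9 FPKM (limma adjusted p = 0.000538, 0.000495 and 0.000143).

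Some further genes of this list were picked after their values were seen. The deoxyuridine triphosphatase gene dUTPase, which keeps uracil out of DNA, rose from 261 ± 23.9 FPKM to 576 ± 46.4, 444 ± 17.1 and 442 ± 33.7 FPKM (SD, n = 3; limma adjusted p = 4.78e-06, 0.000531 and 0.000375). The deoxynucleoside kinase gene dnk rose from 25.4 FPKM to 46.5, 50.7 and 56.8 FPKM (limma adjusted p = 0.000456, 0.000513 and 0.000123). The histone stem-loop binding protein gene Slbp rose from 23.8 FPKM to 58.4, 43.2 and 55.2 FPKM (limma adjusted p = 0.00191, 0.0465 and 0.00655). The genes of this list called with none of the 3 constructs were Psf3, l(1)G0148, chif, Top1 and rnh1. Psf3 averaged 11.2 FPKM in the control and 14.5, 12.9 and 14.2 FPKM in the upper groups (limma adjusted p = 0.0557, 0.376 and 0.113).

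The gene that fell was CG10262, which RefSeq names PCNA2, a relative of the clamp gene. It stood at 9.96 ± 1.09 FPKM in the control, 9.01 ± 1.65 FPKM with Monosiga Yap, 2.9 ± 0.814 FPKM with Monosiga Yap-TBD, 4.49 ± 0.497 FPKM with Yki S168A and 4.66 ± 0.307 FPKM with Trichoplax Yap S81A (SD, n = 3). It fell in the last 3 of these against the control, in the direction opposite to mus209 (limma adjusted p = 3.69e-05, 0.00288 and 0.0034). CG5602, which RefSeq names DNAlig1 and which was no member, averaged 9.31 ± 0.786 FPKM in the control and 20.7 ± 1.78, 19.3 ± 4.23 and 17.2 ± 3.95 FPKM with Monosiga Yap-TBD, Yki S168A and Trichoplax Yap S81A (limma adjusted p = 0.000827, 0.00428 and 0.0123).

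The regulators of entry into S phase mostly stayed uncalled. Of 12 tested genes, 2 rose and 1 fell with Monosiga Yap-TBD, beside 12.6% and 12% of all genes tested, so these counts lie near the background. With Yki S168A 2 rose and 0 fell, beside 5.42% and 6.52%, and with Trichoplax Yap S81A 3 rose and 0 fell, beside 6.09% and 6.09%. CycE, the cyclin that triggers S phase, rose from 12.3 ± 0.813 FPKM to 36.5 ± 2.37, 32.3 ± 3.03 and 41.9 ± 11.6 FPKM (SD, n = 3; limma adjusted p = 3.91e-05, 0.000416 and 5.35e-05). E2f, the gene of E2F1, rose from 57.5 ± 4.41 FPKM to 90.2 ± 6.92, 109 ± 5.67 and 155 ± 30.9 FPKM (limma adjusted p = 0.00877, 0.00191 and 6.46e-05), and dap, a Cdk inhibitor, rose with Trichoplax Yap S81A (limma adjusted p = 0.0415) and was not called with the other constructs. The gene that fell with Monosiga Yap-TBD was stg, the Cdc25 phosphatase of entry into mitosis, from 87.6 ± 6.24 FPKM to 57.1 ± 2.73 FPKM (limma adjusted p = 0.00639), and it stood at 68.8 and 78.2 FPKM with Yki S168A and Trichoplax Yap S81A (limma adjusted p = 0.14 and 0.537).

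Of the checkpoint and repair genes, 6 of 18 rose with Monosiga Yap-TBD, 3 with Yki S168A and 4 with Trichoplax Yap S81A, beside 12.6%, 5.42% and 6.09% of all genes tested. None of the 18 was called lower, beside 12%, 6.52% and 6.09%. The mismatch repair gene Msh6 rose with Monosiga Yap-TBD and Trichoplax Yap S81A, from 4.05 FPKM to 9.44 and 7.89 FPKM (limma adjusted p = 0.00366 and 0.0361). The checkpoint kinase gene mei-41, the fly ATR, rose from 4.21 FPKM to 9.18, 6.94 and 8.12 FPKM (limma adjusted p = 0.000766, 0.0331 and 0.00596), while grp and lok, the fly Chk1 and Chk2 and picked after their values were seen, were not called against the control.

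Gene position was looked at because 1 pair of members shares a start region. Mcm2 at 3R 4090565 to 4093653 on the plus strand and RpA-70 at 3R 4087842 to 4090171 on the minus strand begin 394 bases apart and run away from each other (dm3), and both rose with the 3 constructs. In the same arrangement, 16 other genes begin within 1000 bases of a member, and of these 3 rose and 2 fell with Monosiga Yap-TBD, beside 12.6% and 12% of all genes tested. With Yki S168A 2 rose, beside 5.42%, and with Trichoplax Yap S81A 1 rose, beside 6.09%. These counts lie near the background and show nothing particular to the neighbours of members. The gene that rose in all 3 comparisons was Dek, which begins 883 bases from Fen1 (108 FPKM in the control, 167, 173 and 164 FPKM in the upper groups, limma adjusted p = 0.000718, 0.00112 and 0.00219).

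Across the 15 libraries, the named genes outside the list whose log2(FPKM + 1) was most like the mean of the members were WRNexo (Pearson r 0.989), sub (0.987), RanGap (0.984), Pole2 (0.981) and BthD (0.979). These coefficients describe points that share the 5 groups and carry no test. WRNexo averaged 9.38 FPKM in the control, 9.94 FPKM with Monosiga Yap and 35, 30.8 and 38.1 FPKM in the 3 upper groups, and Pole2, a polymerase epsilon subunit gene, 5.42, 4.44, 16.4, 12.1 and 14.9 FPKM. Within the list, Mcm5 (0.995), mus209 (0.991) and Mcm3 (0.989) followed that mean most closely, as parts of it, and Psf2 (0.655), Psf1 (0.724) and RfC38 (0.743) least.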

How the data were processed

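The members and the other gene lists were chosen with earlier results of these data known, and Ts and Mcm10 were set apart after their values were seen. Build dm3 and the programs TopHat 1.0.14, Cuffdiff 1.0.2, Cufflinks and CASAVA 1.7.0 are named in the submitters' processing notes, while annotation, filters and strand handling are not given in the sources used here. The deposited FPKM values cover 14671 genes in 15 libraries. A second table by the authors gives coordinates, the natural log ratio of each construct over the control, the authors' p-value and an adjusted value that exceeds 1 in places and was read as a score; its mean column on the log2 scale, as deposited, was not used. Depth was estimated from the steps between low FPKM values. No count test was run.

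Values were taken to log2(FPKM + 1). The 9213 genes that reached 1 FPKM in 3 or more libraries were fitted in limma 3.58.1 (R 4.3.3) with all 5 groups, a variance trend and robust moderation. There were 8 contrasts, tested on both sides with Benjamini-Hochberg adjustment over all genes tested, and adjusted p under 0.05 was called. Folds are ratios of mean FPKM, log2 fold changes are on the log2(FPKM + 1) scale, which understates low genes, and errors are SD of 3 libraries or SE. On simulated data the steps were tested for recovery of known changes. Every library is shown for the member of each role with the largest change and of highest control level, and for members called in none of the 3 comparisons. Of each further list up to 4 called genes per direction with the largest change were named, with further ones picked after their values were seen where the text says so. Some genes of the checkpoint and repair list are not reported here by name. Other computations used python 3.11.15, numpy 2.4.6, pandas 2.3.3 and matplotlib 3.10.9. Alternatives were another pseudocount, other filters, rescaled libraries, a fit of the compared groups alone, plain moderation, array weights, a replicate block and leaving out each library.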

Additional observations from a re-analysis of the deposited data

Results flagged for a closer look

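For 2 members the effects of 2 constructs differed by a test of the difference itself, a share of the 38 members near the 3.39% of all genes tested called higher and 3.74% called lower in that comparison. Orc2 was higher with Monosiga Yap-TBD than with Yki S168A by 0.775 on the log2 scale (limma adjusted p = 0.0258), with all 3 libraries of the first group above all 3 of the second. RPA2 was higher in the same direction by 0.564 (limma adjusted p = 0.0209), again without overlap. Neither call held in every fit that left out 1 library: the limma adjusted p ranged from 0.0426 to 0.136 for Orc2 and from 0.0347 to 0.122 for RPA2, and the log2 differences from 0.67 to 0.85 and from 0.48 to 0.61.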

How the results depend on the processing

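Over the settings that kept all libraries, the counts of the 38 members called higher against the control stayed at 0 with Monosiga Yap. They stayed within 31 to 36 with Monosiga Yap-TBD, 29 to 35 with Yki S168A and 33 to 36 with Trichoplax Yap S81A. Over these settings 8.21% to 22.5%, 3.22% to 16.7% and 3.89% to 12.4% of all genes tested were called higher, in the same order. The count without Ts and Mcm10, added after the data were seen, was 32, 28 and 32 of 36 members in that order, and 0 with Monosiga Yap. The highest counts came with array weights, as did the highest of these shares. Leaving out 1 library gave 29 to 33, 24 to 27, 30 to 34 and 0 members, and 30 to 36 for Monosiga Yap-TBD against Monosiga Yap. The share of all genes called in those fits is not given here. The counts between constructs moved as well. For Monosiga Yap-TBD against Monosiga Yap, 34 became 30 with the compared groups alone (9.57% of all genes tested) and 33 without the filter (9.06%). It became 35 with rescaled libraries (14.1%) and with array weights (21.2%). The calls lost there with the compared groups alone were CDC45L, Orc1, DNApol-delta and tos. For Monosiga Yap-TBD against Yki S168A, 2 became 4 with rescaled libraries (3.77% of all genes tested), 9 with array weights (18.2%) and 0 to 2 on leaving out 1 library. For Trichoplax Yap S81A against Yki S168A, 0 became 5 with array weights (4.7%), and against Monosiga Yap-TBD 0 higher and 0 lower became 3 and 1 (10.6% and 8.33%); the cause was not tested. No member called in a comparison changed direction in any fit. Same-numbered libraries of different groups did not deviate together (median correlation -0.04 over 30 pairs, 6 of them over 0.1), so the numbers are not read as pairs; with a replicate block the counts were 0, 32, 29 and 34 against the control, 34 between the Monosiga constructs, and 2, 0 and 0 in the remaining comparisons. Against the control, CDC45L (Monosiga Yap-TBD, Yki S168A) and Psf1 (Monosiga Yap-TBD) lost their calls with the block and without the filter, CDC45L (Monosiga Yap-TBD) with plain moderation, tos (Monosiga Yap-TBD, Trichoplax Yap S81A) without the filter, Orc5 (Monosiga Yap-TBD, Yki S168A) with the compared groups alone and Orc1 (Yki S168A) with rescaled libraries. Array weights added calls for Orc6 and geminin with Monosiga Yap-TBD and Trichoplax Yap S81A. With Yki S168A they added Gnf1, Psf1, Orc6, Fen1 and tos. Rescaled libraries added Gnf1, Psf1 and Fen1 with Yki S168A. The compared groups alone added Fen1 with Yki S168A and geminin with Trichoplax Yap S81A. Orc6 was also gained with Monosiga Yap-TBD without its replicate 3 or control replicate 2, and with Trichoplax Yap S81A without its replicate 1. Rescaling changed libraries by -0.161 to 0.122 on the log2 scale. The part of sequencing depth in the lost calls was not tested.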
